A study of Mus musculus with 2 samples.

Results

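The Cwc22 locus of mouse chromosome 2 was examined in allele-specific ATAC-seq counts, a measure of open chromatin in which a transposase cuts and tags accessible DNA. The cells were F121-6, a female embryonic stem cell line whose labels describe a hybrid of 129 and castaneus (CAS) mice, grown with LIF on mitomycin-inactivated fibroblast feeders. All values come from 2 replicates of this 1 line, each split into a 129 and a CAS allele. The 129 allele is the one set over or before CAS in every difference, so a negative difference means more counts on CAS. The labels do not name separate cultures, so any p-value measures only the spread between these libraries, which may be technical.

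The locus was chosen by position, as the windows of 50 kb between 77 and 79 Mb of chromosome 2, read beside those from 83000001 to 84500000 (mm10). Both intervals were proposed with the allele counts of these replicates already known, so their counts are given as a description. The first interval, called the Cwc22 interval here, holds 39 windows and the second, the distal interval, holds 12, of 43941 windows in the table and 3001 on chromosome 2. Each value is a whole number, and the labels do not say whether it counts cuts, fragments or another unit. Over the whole table the columns sum to 44026 (129) and 46128 (CAS) in replicate 1 and to 59812 and 59995 in replicate 2, with means of 1.00, 1.05, 1.36 and 1.37 counts per window.

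Cwc22 encodes a splicing factor that carries the helicase Eif4a3 into the spliceosome, so that an exon junction complex is laid down on spliced RNA. In mice the gene lies in R2d, a segmental duplication whose copy number differs between wild and laboratory mice. Extra copies are known from a second site farther along the same chromosome, where high-copy alleles have been linked to meiotic drive in females. The counts used here do not measure copy number, and the copy number of either genome of F121-6 was not tested. How reads from near-identical copies were placed is not stated either, so the Cwc22 values are uncertain in that respect.

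Cwc22 runs from 77881159 to 77946356 on the minus strand and overlaps 2 windows. The window with its start site (77900001 to 77950000) had 1 count on 129 in each replicate, against 6 (replicate 1) and 13 (replicate 2) on CAS. Both CAS values lay above both 129 values, as raw counts in an interval chosen with its counts known. The share of all windows with alleles apart in this way was not taken. The 129 share of its counts was 14.3% in replicate 1 (exact Clopper-Pearson 95% interval 0.361 to 57.9%) and 7.14% in replicate 2 (0.181 to 33.9%), which covers counting error only. The window over the 3′ part of the gene (77850001 to 77900000) had 1 and 1 on 129, against 0 and 3 on CAS, so there the alleles overlapped. The window beyond the start site (77950001 to 78000000), which holds the pseudogene Gm13726 and no coding gene, had 0 in both replicates on 129, against 1 and 5 on CAS. A count of 0 allows up to 3 counts. Summed over the 2 windows of the gene, Cwc22 had 2 and 2 counts on 129, against 6 and 16 on CAS. Per window that is a difference of -4.50 ± 3.54 (SD, n = 2), with -2.0 in replicate 1 and -7.0 in replicate 2, so the size of the CAS excess differed between replicates while its direction did not.

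Set against each column of the whole table, the 129 values of the start window were ordinary and the CAS values high. The single count on 129 was 0.998 (replicate 1) and 0.735 (replicate 2) of the column mean. On CAS the count was 5.72 and 9.52 times the column mean. A CAS count of 6 or more occurred in 653 windows in replicate 1 (1.49%), and one of 13 or more in 11 windows in replicate 2 (0.0250%). The CAS count of the start window was 2.17 times as high in replicate 2 as in replicate 1, while the CAS column total was 1.30 times as high. As a difference between alleles, 50 windows of the table lay at -5 or lower in replicate 1, and 2 at -12 or lower in replicate 2, each count with the Cwc22 start window in it.

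**Figure D1:**
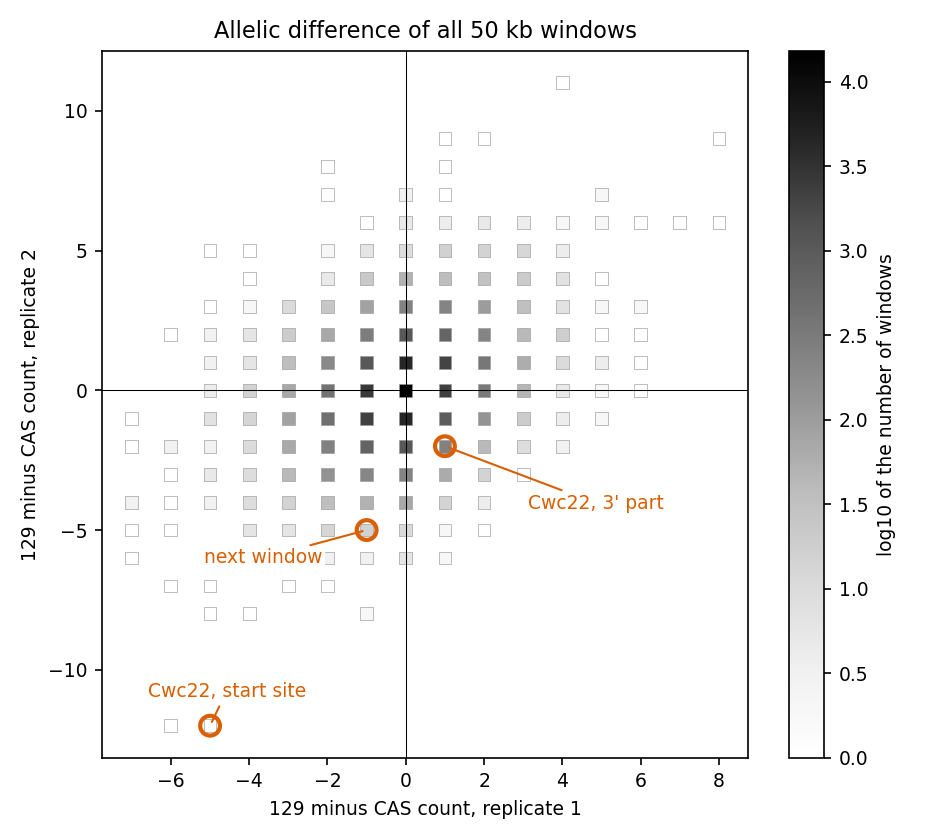
Difference between the 129 and CAS count of each 50 kb window in replicate 1 (horizontal axis) and replicate 2 (vertical axis), with the shade giving the log10 number of windows at each point. The Cwc22 start window lies at -5 and -12, near 1 other window and apart from the bulk, while the window over the 3′ part of the gene lies at 1 and -2 and the window beyond the start site at -1 and -5.

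**Figure D2:**
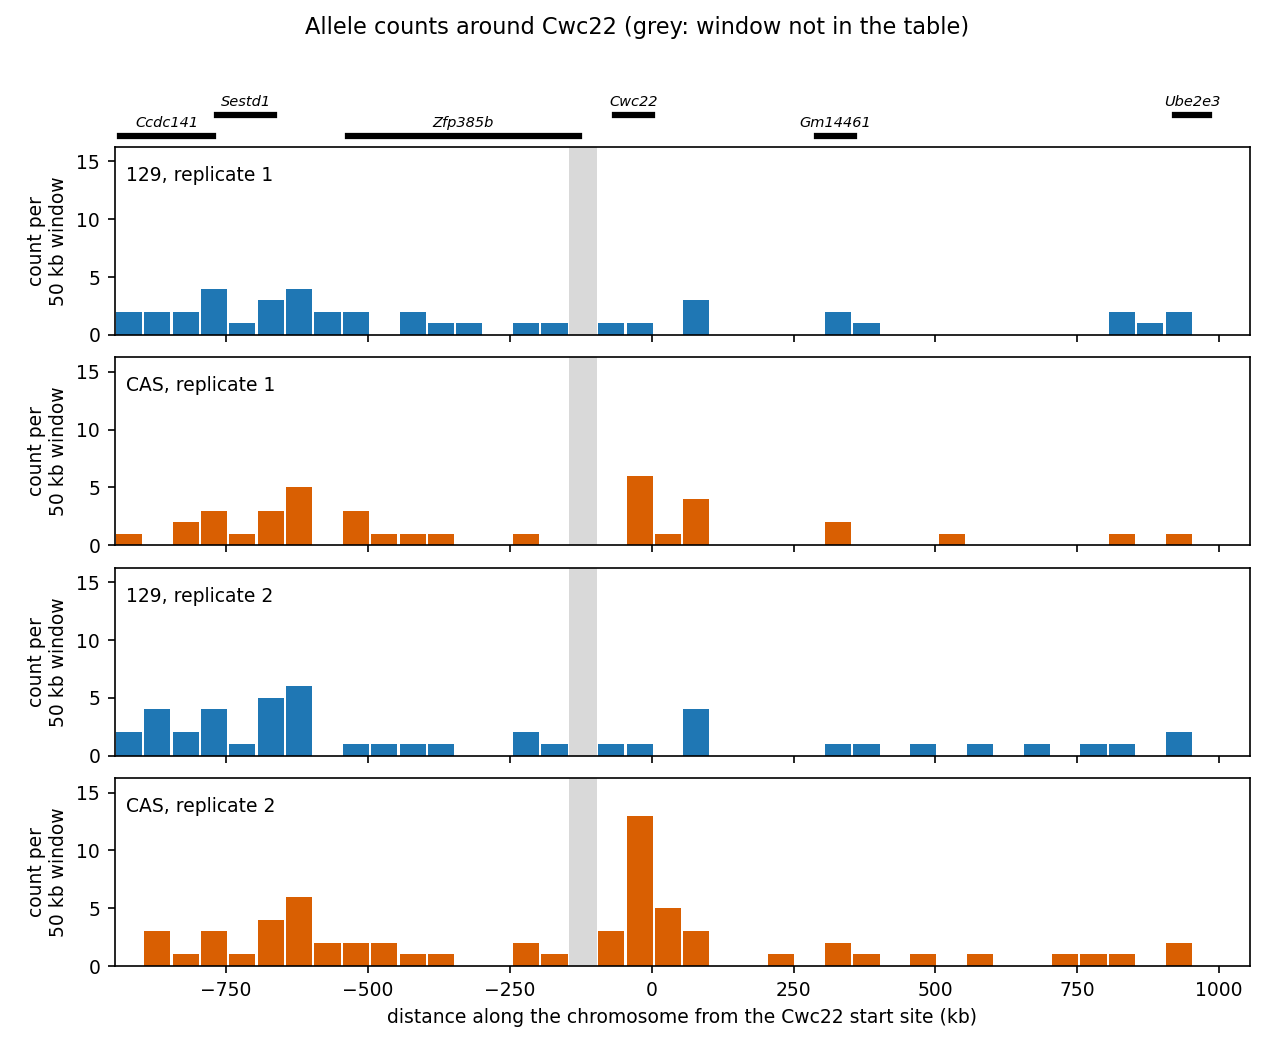
Counts per 50 kb window across the Cwc22 interval, by distance along the chromosome from the Cwc22 start site (kb), with 129 above CAS within each replicate. Black bars are coding genes and the grey band is the window absent from the table. In the window with the start site the CAS bars reach 6 and 13, against 1 and 1 on 129.

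The start window holds the promoter of Cwc22, printed here because its sequence belongs to the window with the allelic difference. Counts are per window of 50 kb, so they do not show where in the window the difference lies. Promoters are 300 bases of RefSeq sequence, 250 before and 50 after the annotated start, on GRCm38.p6, the patch release with the coordinates of mm10. They were found for 11 of the 13 coding genes of the intervals, and come from the reference strain, so they show neither 129 nor CAS letters. Sestd1 is shown as a promoter in a window with similar counts on both alleles, and Zc3h15 as one whose window is absent. Capitals mark ACTACAA on either strand, the start of an element that the zinc finger factor Zfp143 is known to bind in promoters of widely expressed genes.
Cwc22 (chr2:77946307-77946606, minus strand): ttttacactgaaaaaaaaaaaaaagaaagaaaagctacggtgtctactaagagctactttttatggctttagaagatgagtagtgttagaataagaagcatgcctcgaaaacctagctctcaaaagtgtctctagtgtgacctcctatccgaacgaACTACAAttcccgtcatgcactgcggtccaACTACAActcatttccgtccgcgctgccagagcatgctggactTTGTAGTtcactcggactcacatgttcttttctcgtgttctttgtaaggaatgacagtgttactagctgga
Sestd1 (chr2:77280543-77280842, minus strand): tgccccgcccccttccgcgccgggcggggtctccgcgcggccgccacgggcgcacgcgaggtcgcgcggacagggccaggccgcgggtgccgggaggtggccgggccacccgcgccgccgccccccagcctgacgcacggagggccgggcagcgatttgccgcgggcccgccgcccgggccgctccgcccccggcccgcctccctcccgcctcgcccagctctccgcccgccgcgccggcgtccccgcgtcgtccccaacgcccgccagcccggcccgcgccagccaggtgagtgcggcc
Zc3h15 (chr2:83644328-83644627, plus strand): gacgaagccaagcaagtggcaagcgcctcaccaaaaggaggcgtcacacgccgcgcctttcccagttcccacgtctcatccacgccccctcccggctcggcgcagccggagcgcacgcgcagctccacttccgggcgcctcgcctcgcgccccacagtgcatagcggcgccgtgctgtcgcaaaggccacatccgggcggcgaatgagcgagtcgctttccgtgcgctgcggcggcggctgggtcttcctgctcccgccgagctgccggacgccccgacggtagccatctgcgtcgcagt

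ACTACAA occurred 3 times in the Cwc22 promoter, with matches 94, 64 and 21 bases before the start site, the last of them on the opposite strand. Of 31396 autosomal promoters of the same length, 1042 (3.32%) held ACTACAA on either strand and 4 (0.0127%) held it 3 times or more. The motif and the threshold of 3 were not fixed beforehand, so these shares are a description. The Sestd1 and Zc3h15 promoters held none. The Cwc22 promoter had 11 CG dinucleotides and 42.0% G and C, more CG than 58.1% of promoters, whereas Sestd1 had 54 and 85.3%, and Zc3h15 42 and 70.7%. TATAAA (in 13.6% of promoters), CCAAT (37.3%) and GGGCGG (36.0%) were searched on both strands and were not in the 300 bases of the Cwc22 promoter, while GGGCGG occurred 6 times in Sestd1 and 1 time in Zc3h15. CCAAT was also absent from those promoters. These are matches of letters and not measured binding sites.

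The other 5 coding genes of the Cwc22 interval differed by 5 counts or fewer between the alleles in each replicate. Ccdc141, whose protein acts in neuronal migration, had 10 and 12 counts on 129, against 6 and 7 on CAS, over 4 windows. It was the only one of the 6 coding genes with 129 ahead by 2 or more in both replicates as a sum, and none of its windows reached that difference in both. Nothing is read from that 1 gene either. Sestd1, which encodes a spectrin-domain protein, had 8 and 10 on 129, against 7 and 8 on CAS, over 3 windows, and 3 and 5 against 3 and 4 in its start window. Zfp385b, a zinc finger gene and the longest here, had 8 and 7 on 129, against 7 and 9 on CAS, over 8 windows present of 9. No direction held in both replicates for Zfp385b. Gm14461, a predicted coding gene, had 3 and 2 on 129, against 2 and 3 on CAS. Ube2e3, a ubiquitin-conjugating enzyme gene, had 2 and 2 on 129, against 1 and 2 on CAS. Cwc22 was the only coding gene of the interval with more counts on CAS in both replicates. Genome-wide this held for 15.5% of coding genes with counts, so nothing is read from 1 of 6. A further 23 annotated genes are lncRNAs, pseudogenes or other RNAs, all with a window in the table.

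Of 39 windows, 1 had CAS ahead by 2 or more counts in both replicates, the start window, and 0 had 129 ahead by that much. In the whole table the same rule took 1.5% of windows on the CAS side and 1.26% on the 129 side, and nothing is read from 1 of 39, since the interval was chosen with these counts known. By at least 1 count in both replicates, 129 was ahead in 3 windows and CAS in 4, 6 windows with counts were equal in both and 3 were opposite. The 3 windows with 129 ahead lay at 77000001 to 77100000 and 77150001 to 77200000, all over Ccdc141, whose last window also overlaps Sestd1. The 4 with CAS ahead were a pair over Zfp385b (77400001 to 77500000), the Cwc22 start window and the window beyond it. In the remainder of chromosome 2, 369 of 2950 windows had 129 ahead by at least 1 in both replicates, against 191 with CAS ahead.

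The windows with the highest counts in the interval lay near Cwc22 and between Sestd1 and Zfp385b. The highest total, 21 counts over both alleles and replicates, was shared by the Cwc22 start window and by the window at 77300001 to 77350000, which holds the lncRNA Gm35317 and no coding gene. The window with Gm35317 had 4 and 6 counts on 129, against 5 and 6 on CAS. Beyond the window at 78000001 to 78050000, which had 3 and 4 on 129 against 4 and 3 on CAS, no window exceeded a total of 7. In all, 8 windows had 0 in all 4 columns: those starting at 77650001, 78050001, 78100001, 78200001, 78350001, 78550001, 78900001 and 78950001. They make up 20.5% of the interval, against 21.7% of the whole table and 19.6% of the remainder of chromosome 2. Across the 39 windows the 129 and CAS counts of replicate 2 correlated at Pearson r = 0.43, and at 0.72 over the 38 windows without the Cwc22 start window. In replicate 1 the values were 0.66 and 0.80. By rank (Spearman) the correlation changed little, from 0.639 to 0.655 in replicate 2 and from 0.666 to 0.690 in replicate 1. These are descriptions of neighbouring windows that share a library.

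As a whole the Cwc22 interval had 41 and 46 counts on 129, against 38 and 64 on CAS. The 129 share, the 129 count over both alleles, was 51.9% in replicate 1 (exact Clopper-Pearson 95% interval 40.4 to 63.3%) and 41.8% in replicate 2 (32.5 to 51.6%), or 46.9% ± 7.13 (SD, n = 2). Intervals cover counting error only. The remainder of chromosome 2 leaned to 129, at 53.8% and 52.5%, so the interval differed from it by -1.88 points in replicate 1 and -10.6 in replicate 2. Without the 2 Cwc22 windows and the next one, a choice made after seeing the counts, the interval had 39 and 44 counts on 129, against 31 and 43 on CAS. Its share was then 53.1% ± 3.63 (SD, n = 2), and its difference from the remainder of the chromosome 1.93 and -1.89 points. The flank from 75 to 77 Mb had shares of 48.8% and 53.5%, and that from 79 to 81 Mb 58.1% and 55.4%.

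In bins of 500 kb, CAS was ahead in both replicates in 2 of the 4 bins of the Cwc22 interval, of which 1 holds Cwc22. The share of all bins with CAS ahead in both was not taken, so nothing is read from 2 of 4. From 77 to 77.5 Mb the counts were 22 and 26 on 129, against 19 and 24 on CAS. From 77.5 to 78 Mb they were 8 and 7 on 129, against 10 and 26 on CAS, and from 78 to 78.5 Mb 6 and 7, against 7 and 8. The last bin, from 78.5 to 79 Mb, had 5 and 6 on 129, against 2 and 6 on CAS. In the distal interval the 3 bins held at most 10 counts per column. Replicates differed as well: the 129 share from 77.5 to 78 Mb was 44.4% in replicate 1 and 21.2% in replicate 2.

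edgeR's quasi-likelihood test was fitted to all 3858 bins with 20 or more counts, which include 4 of the 7 bins of the 2 intervals. It called 0 of the 4 and 0 bins in all (0.0%), while 112 bins had an unadjusted p below 0.05. By the Wald test of DESeq2 the number called was 0 as well. The bin from 77.5 to 78 Mb had a log2 ratio of 129 over CAS of -1.18 (SE 0.47, adjusted p = 0.986). With the replicate as a block, which fits since both alleles of a replicate come from 1 library, the ratio was -1.22 (SE 0.24, adjusted p = 0.774), and 0 of the 4 bins were called, against 2 of 3858 in all (0.0518%). On single windows edgeR called 0 of 34417 with a count, while 910 had an unadjusted p below 0.05, and the Cwc22 start window had a log2 ratio of -3.09 (SE 0.67, adjusted p = 0.999). With the replicate block edgeR also called 0 windows, and the start window had -3.09 (SE 0.33, adjusted p = 1). Among the 6561 windows with 10 or more counts, edgeR without the block called 2 (0.0305%), both on the 129 side. The Cwc22 start window was not among them (log2 ratio -3.09, SE 0.44, adjusted p = 0.108). It passed that filter through CAS, with 19 counts over both replicates against 2 on 129. A fit with the block was not run on these windows. The difference at Cwc22 passed the adjusted threshold of 0.05 in none of these fits, each of which rests on 2 libraries. Each SE was derived from the F statistic and is not the SD of the 2 replicates.

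**Figure D3:**
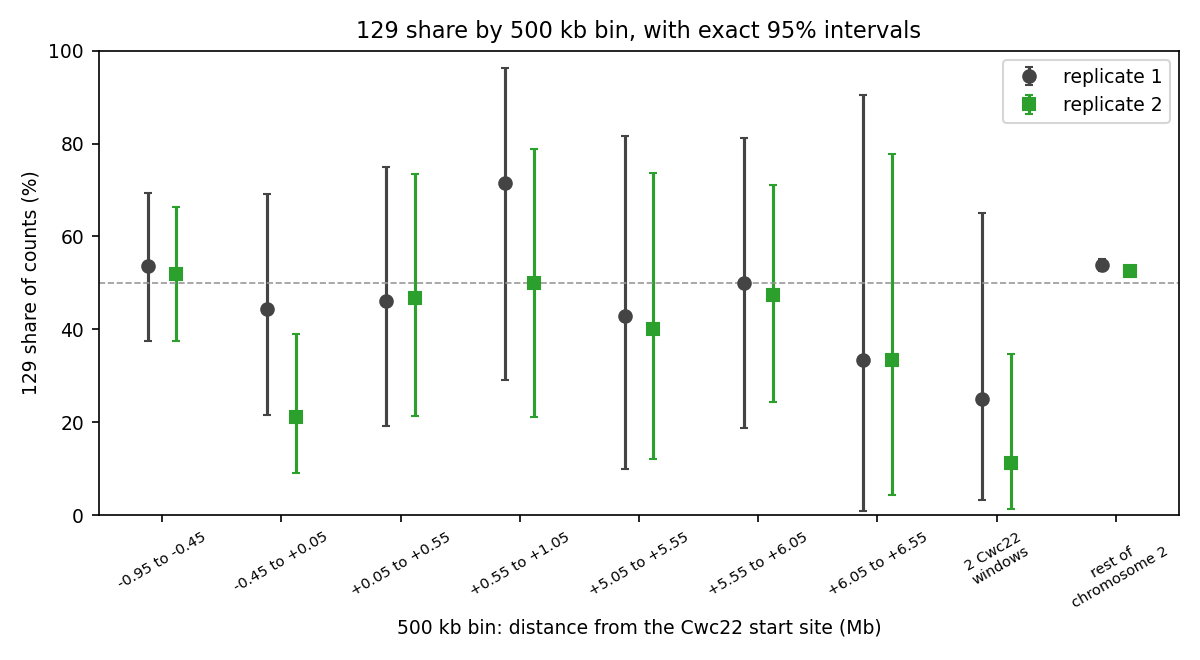
The 129 share of counts (%) in the 7 bins of 500 kb, placed by distance from the Cwc22 start site (Mb), in the 2 windows of Cwc22 and in the remainder of chromosome 2, per replicate with exact 95% intervals. The bin from 77.5 to 78 Mb lies at 44.4% and 21.2% and the Cwc22 windows at 25.0% and 11.1%, with wide intervals.

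The distal interval was read beside Cwc22 for its position on the same chromosome. It had 9 and 15 counts on 129, against 11 and 20 on CAS, a 129 share of 45.0% (23.1 to 68.5%) in replicate 1 and 42.9% (26.3 to 60.6%) in replicate 2, or 43.9% ± 1.52 (SD, n = 2). Both intervals of these shares include the level of the remainder of the chromosome. No window of it had either allele ahead by 2 or more counts in both replicates. The window at 83750001 to 83800000, inside Itgav, which encodes integrin alpha V, had 129 ahead by at least 1 in both, with 1 and 2 counts on 129 against 0 and 0 on CAS. The window at 84450001 to 84500000, over Tfpi, an inhibitor of the clotting cascade, had CAS ahead in both, with 1 and 2 counts on 129 against 2 and 4 on CAS.

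The highest totals of the distal interval, 12 each, were at 83300001 to 83350000, with no coding gene, and at 83650001 to 83700000, over Zc3h15. The first had 3 and 2 counts on 129, against 3 and 4 on CAS. Zc3h15, whose zinc finger protein stabilises the GTPase Drg1, had 3 and 2 on 129, against 2 and 5 on CAS, in the 1 window present of its 2. Fam171b, a membrane protein gene, had 1 and 5 on 129, against 3 and 5 on CAS. Itgav had 1 and 4 on 129, against 1 and 2 on CAS, over 2 windows present of 3. None of these genes had CAS ahead by 2 or more in both replicates. Zswim2, a testis ubiquitin ligase gene, had 0 in all 4 columns, as had the windows starting at 83100001 and 83250001. Fsip2, a sperm tail protein gene whose end reaches into the interval, had 0 and 1 on 129, against 0 and 0 on CAS.

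The intervals differed widely in how many windows were absent from the table. On the grid of 50 kb, 1 of 40 windows of the Cwc22 interval was absent (2.50%), against 18 of 30 in the distal interval (60.0%). On chromosome 2 it was 577 of 3578 (16.1%), and genome-wide 3978 of 47919 (8.30%). The flank from 75 to 77 Mb lacked 0 of 40 windows and that from 79 to 81 Mb lacked 16. Nothing in the sources used here says how a window came to be left out.

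The absent window of the Cwc22 interval, at 77800001 to 77850000, lies next to the windows of Cwc22 and holds the most upstream of the 4 annotated Zfp385b start sites (77816816), a promoter with 43 CG. The distal interval lacked single windows at 83050001, 83150001 and 83700001, a run of 5 windows from 83400001 to 83650000 and a run of 10 from 83950001 to 84450000. The start sites of Zc3h15 (83644578) and Itgav (83724397) fall in absent windows. Calcrl, the receptor gene for the peptide CGRP, lies wholly in the run of 10 and has no value. That run also holds 8 pseudogenes, of which 7 form an array from 83955605 to 83993518, each annotated at 3054 bp and spaced by 5810 bp. On chromosome 2, 10 of 155 runs were longer, and 76 of 1207 runs in the whole table were as long or longer. Of the 13 noncoding genes and pseudogenes annotated in the distal interval, 10 had no window with a value.

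**Figure D4:**
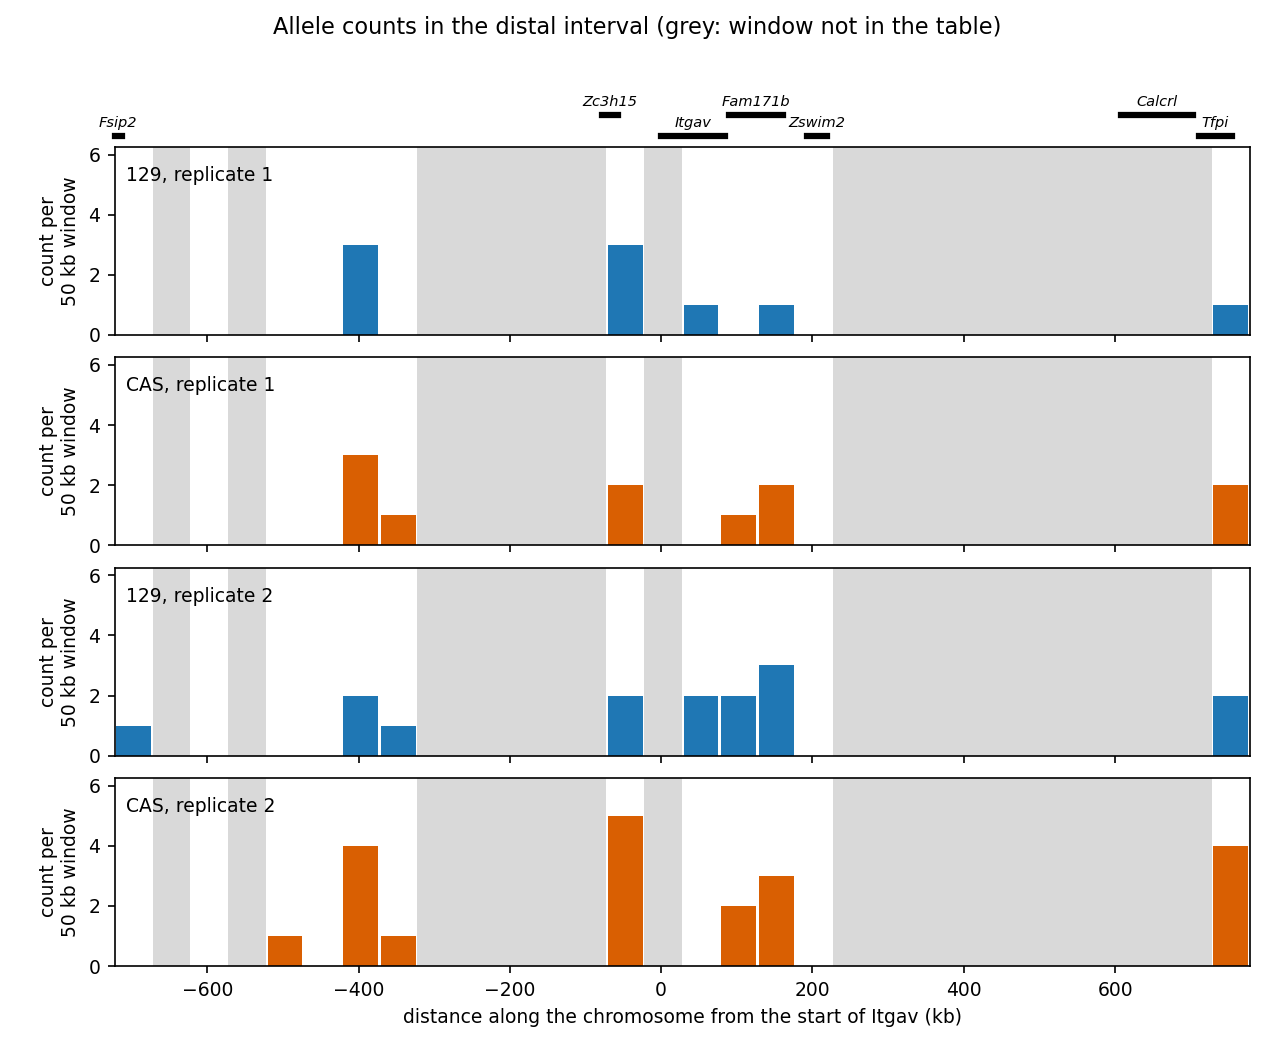
Counts per 50 kb window across the distal interval, by distance along the chromosome from the start of Itgav (kb), with 129 above CAS within each replicate. Grey bands are the 18 windows absent from the table, and the highest bar among the 12 present windows is 5 counts, on CAS in replicate 2 over Zc3h15.

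The genes whose counts resembled those of Cwc22 most closely were sought among 18576 other autosomal coding genes, by the summed absolute difference in mean counts per present window over the 4 columns. Gm51595, Gm51596 and Gm51597, which share 1 window of chromosome 8, were nearest (distance 2.0), with 1 and 2 counts on 129, against 3 and 7 on CAS. Otud6b, a deubiquitinase gene on chromosome 4, had 1 and 1 on 129, against 4 and 6 on CAS (distance 3.0). LOC100504180 on chromosome 10 had 1 and 1 on 129, against 6 and 8 on CAS (distance 3.0). The distance rests on 4 columns only, and the number of genes this near was not counted.

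The partners of Cwc22 in splicing were read as a list. Of 30 genes of the exon junction complex and the spliceosome, 27 had a window with counts, and 0 of these had CAS ahead in both replicates, while 2 had 129 ahead. Among 17074 coding genes with counts, CAS was ahead in both for 15.5% and 129 for 14.5%. Eif4a3, the helicase that Cwc22 carries, had 5 and 2 on 129, against 4 and 2 on CAS. Magoh, a core subunit of the exon junction complex, had 2 and 1 on 129, against 3 and 1 on CAS, and its paralogue Magohb 1 and 3, against 2 and 1. Prpf8, the central protein of the spliceosome, had 7 and 6 on each allele. The genes with 129 ahead in both were Syf2, with 5 and 1 on 129 against 3 and 0 on CAS, and Prpf19, a ubiquitin ligase of the spliceosome, with 5 and 4 against 4 and 3.

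The label of the cells was checked on marker genes. The 8 stem cell markers, among them Pou5f1, Nanog and Esrrb, all had counts, summing to 68 and 88 on 129, against 69 and 86 on CAS, with a median per gene of 4.38 and 5.75 counts per window on 129 and 4.0 and 6.25 on CAS. The 8 fibroblast markers also all had counts, as had 17074 of the 18577 coding genes with a window, so having counts sets neither list apart. Fibroblasts were in the culture as feeders. The fibroblast markers summed to 18 and 24 on 129, against 20 and 15 on CAS, with medians of 1.00 and 1.42 on 129 and 1.5 and 1.08 on CAS. Over all coding genes the medians were 1.5 and 1.67 on 129 and 1.57 and 1.5 on CAS. Of the 8 fibroblast markers, 3 had 129 ahead in both replicates (Cd44, Thy1 and Col1a1; 37.5%) and 0 had CAS ahead, against 14.5% and 15.5% of all coding genes with counts. Their part in the Cwc22 counts was not tested.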

How the data were processed

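ATAC-seq was measured in 2 replicates of F121-6 cells. The authors deposited counts per 50 kb window, as whole numbers with 1 column per allele and replicate (0 further per-sample columns). Bowtie2, MACS2, SAMtools, bedtools and the build mm10 are listed in the submitters' processing notes, without roles. What was counted, and how alleles were assigned, is not given in the sources used here. Column totals run from 44026 to 59995.

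Windows were matched to RefSeq genes of GRCm38.p6 by any shared base, and coordinates are 1-based. Counts were summed over windows, genes and 500 kb bins and not normalized for the shares. Bins with 20 or more counts, and windows with a count, were tested with edgeR 4.0.16 (quasi-likelihood, TMM, all 4 columns, genome-wide Benjamini-Hochberg adjustment, threshold 0.05) after tests on simulated data; DESeq2 1.42.0 was an alternative. The replicate number pairs the alleles, which come from 1 library: deviations of both alleles correlated at r = 0.291 over windows.

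Members and lists were chosen with earlier results of these data known. Named were all coding genes of the intervals, windows with an allele ahead by 2 or more counts in both replicates, windows at 0, absent windows, the highest totals and the 5 genes nearest to Cwc22. Other genes and windows were picked after their values were seen.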

Additional observations from a re-analysis of the deposited data

How the results depend on the processing

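Apart from leaving out a replicate, 40 alternatives were run. Of these, 35 left their result in the same direction and on the same side of its threshold, or moved a value or count by less than 1 SD or 1.5 times. The other 5 are given here, and 1 of them, without the Cwc22 windows, has the opposite sign. Some of the 35 could not come out otherwise. A fit that called 0 bins in all also called 0 in the intervals, and the adjusted p threshold of 0.1 uses the main fit again. The number 35 is therefore not a measure of stability. With the replicate block, edgeR called 2 bins of 500 kb in place of 0, none of them in the intervals. Size factors from DESeq2, 1 library size per replicate, the DESeq2 Wald test, all bins with a count, 1 Mb bins and an adjusted p threshold of 0.1 called 0. The block changed no other call, and on windows also gave 0. Restricting windows to those with 10 or more counts, without the block, gave 2 calls in place of 0. Fewer windows are tested there. Across the alternatives the Cwc22 start window kept a log2 ratio of -3.09, with adjusted p from 0.108 to 1. Some alternatives within 1 SD (7.13 points) still moved the 129 share of the Cwc22 interval, 46.9%, to values with 129 ahead. It was 51.2% with windows weighted equally, 51.2% without the start window and 53.1% without the Cwc22 windows and the next window. Leaving out the window with the highest total (46.8%) dropped the tied window at 77300001, and not the Cwc22 start window.

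Without the Cwc22 windows and the next window, chosen after seeing the data, the difference of the Cwc22 interval from the remainder of chromosome 2 was 0.0200 points in place of -6.27. Without the start window alone it was -1.91. Taking the start window alone, the difference at Cwc22 was -8.5 counts per window in place of -4.5. Leaving out a replicate, which with n = 2 says nothing about stability, gave -7.0 to -2.0 for that difference and 41.8 to 51.9% for the share of the interval. Widening the interval by 500 kb on each side gave 9 absent windows in place of 1. A fit without either replicate leaves 1 library and was not run. Counts of a few per window limit the precision of every share.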

Other observations

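The Cwc22 start window is 1 of 9 windows of the whole table with CAS ahead by 5 or more counts in both replicates, and the only such window on chromosome 2. With 129 ahead by that much there were 8. The cutoff of 5 equals the size of the replicate 1 difference of the Cwc22 start window itself. Its place among the 9 therefore follows from its own counts and is a description. By the sum of both replicates, 2 windows lay at least as far to the CAS side as Cwc22 (-17), itself included. The other was the window 12297 bp from Vmn2r68, a vomeronasal receptor gene on chromosome 7, with 0 and 2 counts on 129, against 6 and 14 on CAS.

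Other windows of that kind lay in varied surroundings and were singled out by their values. Duxf3, of the Dux genes that are active in early embryos, overlaps the same chromosome 10 window as LOC100504180, given above. That window had 1 and 1 counts on 129, against 6 and 8 on CAS, so both genes rest on the same counts. A window over Map4k3, a kinase gene on chromosome 17, had 0 and 1, against 6 and 8. Pdpn, the gene of the surface protein podoplanin on chromosome 4, had 3 and 3, against 8 and 11. Klhl25 on chromosome 7 had 1 and 3, against 7 and 8, and Ibtk on chromosome 9 had 1 and 2, against 8 and 7. A window on chromosome 12, with Adam6a as its nearest coding gene 403587 bp away, had 0 and 1, against 7 and 7.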
